A study of Homo sapiens with 6 samples.

Results

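The 70 genes described here encode the ligands and receptors of 4 guidance systems: the semaphorins with their plexin and neuropilin receptors, the ephrins with their Eph receptors, the slits with their roundabout (ROBO) receptors, and the netrins with their UNC5 receptors. They were chosen by gene symbol among the protein-coding genes of the count table, a rule that uses no measured value but was set with earlier results of these data known, and they are 70 of the 58735 genes listed. Of these, 37 encode ligands and 33 encode receptors. RNA-seq was run on MDA-MB-231 cells, an established human line of triple-negative breast cancer, which lacks hormone receptors and HER2 amplification. The parent group (genotype WT, 3 libraries) was compared with the ADRr group (genotype ADR resistant, 3 libraries), MDA-MB-231 cells made resistant to adriamycin (ADR, doxorubicin), an anthracycline that damages DNA. Per the study's methods the resistant cells were selected in rising concentrations of ADR and then cloned by limiting dilution, so what belongs to resistance and what belongs to the chosen clone cannot be told apart. Whether ADR was present at harvest was not given in the sources used here, nor whether the 3 libraries of a group came from separate cultures, so every p-value below measures the spread between these libraries, which may be technical. The submitters' design text also mentions 3 time points, but no sample label gives a time. Libraries with the same genotype label were taken as replicates here, and if they differ in time, each SD, SE and p-value includes that difference.

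Guidance molecules were first known for steering growing axons, and the same ligands and receptors act in blood vessels, epithelia and tumours. A semaphorin binds a plexin, often with a neuropilin as co-receptor, and changes adhesion and the actin cytoskeleton through small GTPases. Ephrins are tethered to the membrane, type A by a lipid anchor and type B by a transmembrane domain, so ephrin and Eph receptor signal where cells touch, and the ligand-bearing cell can signal as well. Slits are secreted and act through ROBO receptors. Netrins are laminin-related proteins, of which secreted members such as NTN1 act through UNC5 receptors, DCC and neogenin.

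In ADRr cells the guidance genes moved in both directions. Of 47 genes with enough counts to be tested, 20 rose and 17 fell, 10 were not called, and the other 23 were too low to test. Among the called genes, SEMA3D, SEMA3E, PLXNA4 and UNC5B had enough counts only with their ADRr libraries, and SEMA3G only with its parent libraries. A call in the other direction was hardly open to these genes, so their directions were largely set by the filter. A gene was called at a Benjamini-Hochberg adjusted p of at most 0.05 in edgeR's quasi-likelihood test, with a fold change of at least 1.2, over all 15242 genes tested. By the same rule 29.2% of all tested genes rose and 29.6% fell, 58.8% in either direction. The called share of the tested guidance genes was 78.7%, and 19 of the 47 (40.4%) were called with a log2 fold change of 1 or more in either direction, against 18.8% of all tested genes. The median log2 fold change of the 47 was 0.02 and their median absolute log2 fold change 0.82, against -0.0061 and 0.46 over all tested genes. For 20 of the genes the lowest ADRr library exceeded the highest parent library (34.5% of all tested genes). For 18 it was the reverse (34.7%), and for 9 the groups overlapped. Groups did not overlap for 80.9% of the 47, against 69.2% of all tested genes. SEMA3D, SEMA3E, PLXNA4, UNC5B and SEMA3G are counted in all these shares and medians. For them a large change was nearly a condition of being tested, and the all-gene values hold such genes as well. These differences from all tested genes were not tested. In bulk RNA, fewer cells that express a gene and less of its RNA per cell cannot be told apart.

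**Figure D1:**
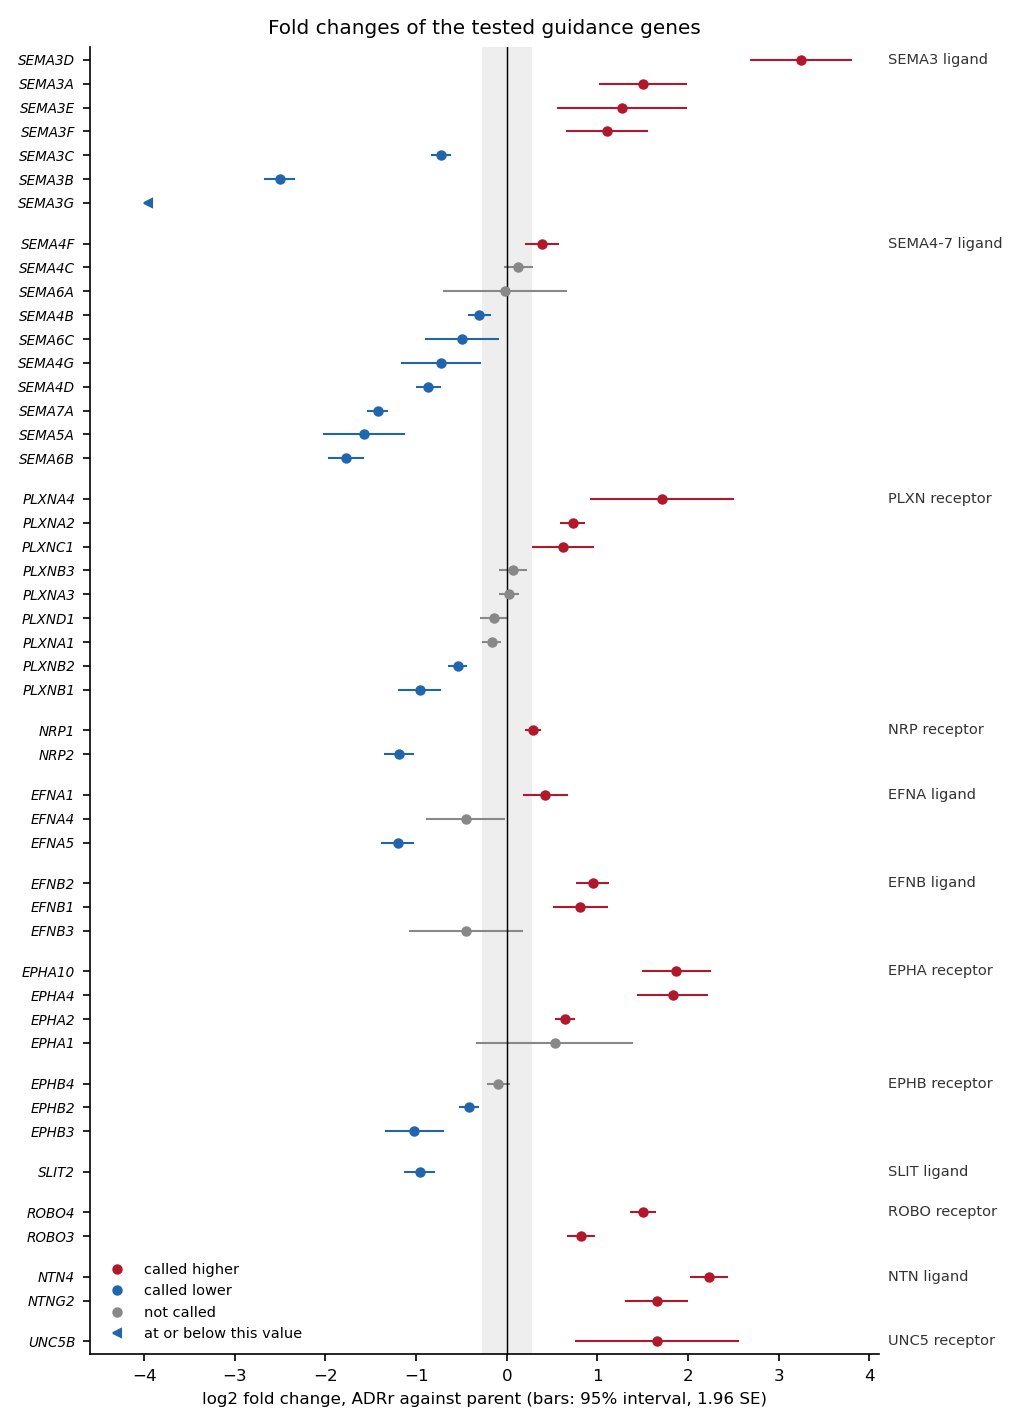
Log2 fold change of ADRr against parent (x axis) for each of the 47 tested guidance genes, grouped by family (right), with points for the edgeR estimate, bars for the 95% interval and a grey band for changes under 1.2-fold. The triangle marks SEMA3G, for which only a bound can be given, and the membrane semaphorins, with 7 lower and 1 higher, lie mostly left of 0.

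Of 26 tested ligands 10 rose and 12 fell, and of 21 tested receptors 10 rose and 5 fell. Over all tested genes 29.2% rose and 29.6% fell, which is the background for these counts and for the family counts below. The semaphorin system, with 28 of the 47 tested genes, held 13 of the 17 falls and 9 of the 20 rises. In the ephrin system 6 genes rose and 3 fell, and in the slit system 2 rose and 1 fell. In the netrin system all 3 tested genes rose. These are counts over small families and were not tested against one another.

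Promoters were taken for genes with a single RefSeq promoter entry whose start lay within 1000 bases of the annotated 5′ end of the gene. Of those that reached 3 FPKM (fragments per kilobase of gene, scaled to library size) in either group, the called genes with the largest rises and falls are shown. NTN4, SEMA3B, SEMA6B and SEMA7A changed more than the shown genes of their direction but had no single entry. Each sequence is the 250 bases before the RefSeq start (GRCh38.p14), read 5′ to 3′ on the gene's strand, with capitals for matches to the GC box (GGGCGG) or the TATA box (TATAAA) on either strand. ROBO4, chr11:124897866-124898115 on the minus strand, and EFNB2, chr13:106535663-106535912 on the minus strand, belong to genes that rose. NRP2, chr2:205682251-205682500 on the plus strand, and EFNA5, chr5:107670938-107671187 on the minus strand, belong to genes that fell.
ROBO4: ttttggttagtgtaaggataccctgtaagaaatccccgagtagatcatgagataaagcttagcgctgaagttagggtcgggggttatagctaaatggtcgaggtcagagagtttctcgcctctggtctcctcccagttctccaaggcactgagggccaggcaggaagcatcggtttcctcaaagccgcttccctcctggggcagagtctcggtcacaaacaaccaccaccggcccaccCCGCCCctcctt
EFNB2: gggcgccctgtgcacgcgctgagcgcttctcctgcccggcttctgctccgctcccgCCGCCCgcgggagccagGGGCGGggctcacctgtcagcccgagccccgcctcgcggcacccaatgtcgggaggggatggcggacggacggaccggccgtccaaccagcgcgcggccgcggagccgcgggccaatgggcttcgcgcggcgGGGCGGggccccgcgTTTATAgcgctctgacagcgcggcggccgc
NRP2: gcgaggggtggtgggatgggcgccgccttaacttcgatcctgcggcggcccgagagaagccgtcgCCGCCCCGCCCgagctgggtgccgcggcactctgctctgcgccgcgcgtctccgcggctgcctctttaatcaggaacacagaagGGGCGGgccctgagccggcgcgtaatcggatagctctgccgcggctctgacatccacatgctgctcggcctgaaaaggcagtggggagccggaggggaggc
EFNA5: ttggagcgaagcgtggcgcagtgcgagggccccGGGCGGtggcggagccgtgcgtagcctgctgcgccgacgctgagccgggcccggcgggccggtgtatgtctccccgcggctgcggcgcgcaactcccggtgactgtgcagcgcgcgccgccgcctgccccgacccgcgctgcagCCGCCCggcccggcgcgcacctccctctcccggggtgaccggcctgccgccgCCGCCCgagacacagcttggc

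The EFNB2, NRP2 and EFNA5 windows were GC-rich, at 78.4%, 70.0% and 79.6% G and C, and each held 3 GC boxes, whereas the ROBO4 window was 54.8% G and C and held 1. A GC box stood in 32 of the 37 promoters of guidance genes with a single RefSeq entry (86.49%). It stood in 42.64% of 35116 promoters of the same length. The TATA box was found in 1 of the 37 (2.7%), the EFNB2 window, against 10.72% of all. An NF-kB motif occurred in 9 of the 37 (24.32%, against 22.57%) and a STAT motif (TTCNNNGAA) in 2 (5.41%, against 6.57%). The AP-1 motif (TGANTCA) occurred in 0 of the 37, against 6.57%. Matches were counted on both strands, may overlap one another, and describe only the letters of these windows.

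The secreted class 3 semaphorins, which act mainly through neuropilins, changed in both directions: all 7 were tested, and 4 rose and 3 fell. The abundant members were among those that fell. SEMA3B (ENSG00000012171, chr3:50267558-50277546), which has been described as a tumour suppressor on chromosome 3, was counted at 1558, 1341 and 1661 normalized counts in the parent libraries and 282, 258 and 262 in the ADRr libraries. No ADRr library came near the parent range, and SEMA3B fell by 2.51 on the log2 scale (SE 0.086, adjusted p = 7.0e-17), from 15.1 ± 1.61 to 2.66 ± 0.125 FPKM (mean ± SD, n = 3, as for all FPKM pairs below). SEMA3C, a ligand of both neuropilins, had 2558, 2749 and 2516 normalized counts in the parent and 1572, 1562 and 1596 in the ADRr libraries. It fell by 0.73 (SE 0.056, adjusted p = 1.2e-10) and stayed the most abundant class 3 semaphorin in both groups, at 23.8 ± 1.13 and 14.4 ± 0.198 FPKM. SEMA3G, known from blood vessels, was counted at 50, 36 and 48 raw counts in the parent libraries and 0, 2 and 0 in the ADRr libraries. With all ADRr libraries under a floor of 3 counts, SEMA3G was at least 15.6-fold lower (adjusted p = 1.2e-08).

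The class 3 semaphorins that rose were all low in both groups, under 1 FPKM. SEMA3D, a ligand with a role in vascular and neural crest patterning, had 15.4, 5.41 and 10.7 normalized counts in the parent libraries and 101, 94.2 and 108 in the ADRr libraries. This was the largest rise among the guidance genes, a log2 fold change of 3.24 (SE 0.29, adjusted p = 1.1e-09), to 0.720 ± 0.0524 FPKM. SEMA3A, the prototype axon repellent that binds NRP1, was measured at 27.8, 21.6 and 28.2 normalized counts in the parent and 77.1, 61.7 and 82.2 in the ADRr libraries (log2 fold change 1.5, SE 0.25, adjusted p = 1.2e-05). SEMA3E, which binds PLXND1 without a neuropilin, had 7.20, 16.2 and 13.6 in the parent and 30.5, 29.3 and 29.9 in the ADRr libraries (log2 fold change 1.27, SE 0.36, adjusted p = 0.0038). For SEMA3F, an NRP2 ligand, the counts were 34.0, 36.8 and 36.0 in the parent and 72.3, 93.1 and 65.4 in the ADRr libraries (log2 fold change 1.11, SE 0.23, adjusted p = 2.0e-04). The groups overlapped for none of these 4 genes. SEMA3D and SEMA3E had enough counts to be tested only with their ADRr libraries, so a fall was hardly open to them. Summed over the family, class 3 RNA went from 40.1 ± 0.561 to 19.4 ± 0.175 FPKM, and the share of SEMA3C in that sum from 59.3% to 74.4%.

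SEMA3C, SEMA3E, SEMA3A and SEMA3D lie on 1 stretch of chromosome 7 (GRCh38, 80742538 to 85186855), and SEMA3F and SEMA3B are close neighbours on chromosome 3 (50155045 to 50277546). On chromosome 7 SEMA3C fell and the other three rose, and on chromosome 3 SEMA3F rose while SEMA3B fell, among neighbouring genes whose median log2 fold changes were -0.70 and -0.69.

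**Figure D2:**
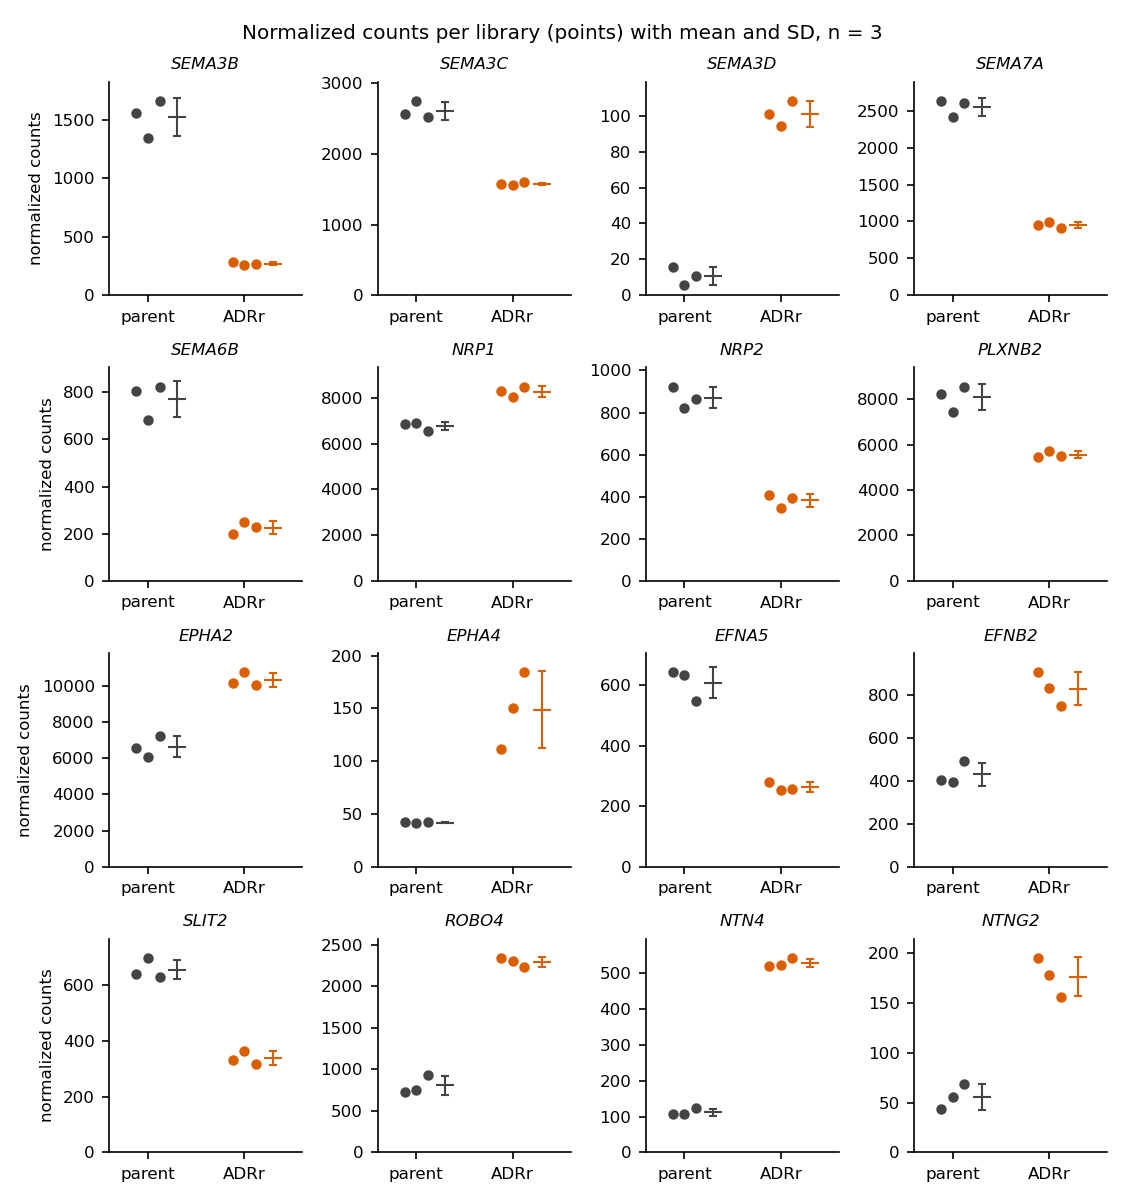
Normalized counts (y axis, from 0) of 16 guidance genes in each of the 3 parent and 3 ADRr libraries, with points for libraries and bars for the mean and SD of each group. The 2 groups do not overlap in any panel. SEMA3B, SEMA7A, SEMA6B, NRP2, EFNA5 and SLIT2 are lower and EPHA2, EFNB2, ROBO4, NTN4 and NTNG2 higher in ADRr. All 16 genes shown are called genes, so the lack of overlap was nearly given by the choice. Over all tested genes the groups did not overlap for 69.2%.

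The membrane-bound semaphorins of classes 4 to 7 were mostly lower in ADRr cells: of 13 listed, 10 were tested, 7 fell, 1 rose and 2 were not called. SEMA7A (ENSG00000138623, chr15:74409289-74433958), a lipid-anchored semaphorin that also binds integrins, was the most abundant semaphorin by FPKM in parent cells. It had 2634, 2411 and 2606 normalized counts there and 953, 991 and 907 in the ADRr libraries. The groups were far apart, and SEMA7A fell by 1.43 on the log2 scale (SE 0.061, adjusted p = 3.5e-15), from 38.4 ± 1.87 to 14.3 ± 0.596 FPKM. SEMA6B, a class 6 ligand of A-type plexins, had 806, 684 and 823 normalized counts in the parent and 199, 250.1 and 229.7 in the ADRr libraries and fell by 1.77 (SE 0.1, adjusted p = 4.7e-13), from 9.99 ± 0.987 to 2.94 ± 0.331 FPKM. SEMA5A, which carries thrombospondin repeats, was low, at 143, 131 and 80.8 normalized counts in the parent and 39.0, 49.2 and 30.8 in the ADRr libraries, and fell by 1.58 (SE 0.23, adjusted p = 3.0e-06). Parent replicate 3 was the lowest of its group for SEMA5A, yet above every ADRr library.

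Class 4 changed less. SEMA4B had 1487, 1487 and 1619 normalized counts in the parent and 1254, 1299 and 1172 in the ADRr libraries, and its fall of 0.30 (SE 0.063, adjusted p = 2.1e-04) was close to the fold threshold. SEMA4D, the ligand of PLXNB1, fell by 0.86 (adjusted p = 3.2e-10), from 5.17 ± 0.340 to 2.85 ± 0.156 FPKM. SEMA4G fell by 0.73 (adjusted p = 0.0069), and 22.27% of its exonic length overlaps MRPL43 on the opposite strand. SEMA4F was the 1 membrane semaphorin that rose, with a log2 fold change of 0.39 (adjusted p = 0.0012). SEMA4C, a PLXNB2 ligand, was not called (log2 fold change 0.13, 95% interval -0.03 to 0.29, adjusted p = 0.18). SEMA6A was low and not called either, with a wide interval (-0.71 to 0.67, adjusted p = 0.96). SEMA6C fell by 0.49 (adjusted p = 0.04), a call lost with DESeq2 (adjusted p = 0.13) and without parent replicate 1 (-0.52), parent replicate 3 (-0.38) or ADRr replicate 1 (-0.28). The summed RNA of classes 4 to 7 went from 79.9 ± 4.44 to 45.1 ± 2.49 FPKM, and the share of SEMA7A in that sum from 48.1% to 31.8%.

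Plexins transmit the semaphorin signal through a GTPase-activating domain in the cell. All 9 were tested, and 3 rose, 2 fell and 4 were not called. PLXNB2 (ENSG00000196576, chr22:50274979-50307627), the most abundant plexin, was counted at 8248, 7447 and 8554 normalized counts in the parent and 5441, 5739 and 5505 in the ADRr libraries. Its fall of 0.54 on the log2 scale (SE 0.053, adjusted p = 6.6e-09) took it from 63.7 ± 4.49 to 44.0 ± 1.14 FPKM. PLXNB1, the receptor of SEMA4D, fell by 0.96 (adjusted p = 2.8e-07), to 0.793 ± 0.0550 FPKM.

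The A-type plexins, which pair with neuropilins for class 3 semaphorins, did not move together. PLXNA1 was counted at 4929, 4573 and 5147 in the parent and 4423, 4377 and 4234 in the ADRr libraries. Its ADRr libraries were all lower (adjusted p = 0.007), but the log2 fold change of -0.17 (95% interval -0.27 to -0.07) was under the fold threshold and PLXNA1 was not called. For PLXNA3 the counts were 2461, 2275 and 2514 in the parent and 2468, 2416 and 2489 in the ADRr libraries, with a log2 fold change of 0.02 and an interval of -0.08 to 0.13 (adjusted p = 0.71). PLXNA2 rose, with a log2 fold change of 0.73 (adjusted p = 7.0e-09), from 3.29 ± 0.310 to 5.47 ± 0.152 FPKM. PLXNA4 was near the limit of detection, at 4.12, 14.1 and 9.74 normalized counts in the parent and 25.7, 34.5 and 31.8 in the ADRr libraries. It rose by a log2 fold change of 1.71 (SE 0.4, adjusted p = 6.9e-04). PLXNA4 had enough counts to be tested only with its ADRr libraries, so a fall was hardly open to it. PLXNC1, the plexin receptor of SEMA7A, rose with a log2 fold change of 0.62 (adjusted p = 0.0036) and remained under 1 FPKM. PLXNB3 (95% interval -0.08 to 0.22, adjusted p = 0.43) and PLXND1 (-0.30 to 0.00, adjusted p = 0.098) were not called, and 20.44% of the exonic length of PLXNB3 overlaps SRPK3 on the same strand.

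The neuropilins, co-receptors for class 3 semaphorins and for VEGF, went in opposite directions. NRP1 (ENSG00000099250, chr10:33177492-33336262) had 6861, 6911 and 6576 normalized counts in the parent and 8309.5, 8033 and 8498 in the ADRr libraries. All ADRr libraries were higher, by a log2 fold change of 0.29 (SE 0.047, adjusted p = 1.2e-05), which lies just past the fold threshold and is not called without parent replicate 3 (0.26). NRP2 was counted at 923, 823 and 866 in the parent and 407, 345 and 394 in the ADRr libraries and fell by 1.19 (SE 0.084, adjusted p = 2.2e-11), from 3.58 ± 0.214 to 1.58 ± 0.138 FPKM. NRP1 was the more abundant in both groups and made up 90.4% of neuropilin FPKM in parent and 96.3% in ADRr cells.

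In the ephrin system the receptors of type A rose and those of type B fell as far as they changed. EPHA2 (ENSG00000142627, chr1:16124337-16156087), a receptor tyrosine kinase often studied in breast carcinoma, was the most abundant guidance gene by FPKM in both groups. It had 6542, 6091 and 7246 normalized counts in the parent libraries and 10185, 10748 and 10029.5 in the ADRr libraries. It rose with a log2 fold change of 0.64 (SE 0.056, adjusted p = 9.8e-10), from 91.1 ± 7.87 to 142 ± 4.81 FPKM, and made up 99.2% and 98.5% of the summed EPHA FPKM. EPHA4, which binds ephrins of both types, had 42.2, 41.1 and 41.9 normalized counts in the parent and 111, 151 and 184 in the ADRr libraries, with a log2 fold change of 1.83 (SE 0.2, adjusted p = 3.8e-08). The 3 ADRr libraries varied more than the parent libraries for EPHA4, and the lowest of them was still above the parent range. EPHA10, a receptor whose kinase domain is thought to be inactive, was measured at 36.0, 29.2 and 35.1 in the parent and 119.9, 125 and 124 in the ADRr libraries (log2 fold change 1.87, SE 0.19, adjusted p = 1.3e-08). EPHA1 was not called (95% interval -0.34 to 1.40, adjusted p = 0.3).

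Among the B receptors, EPHB2 had 2269, 2094 and 2233 normalized counts in the parent and 1674, 1595 and 1657 in the ADRr libraries and fell by 0.42 (SE 0.057, adjusted p = 8.4e-07). EPHB3 was counted at 166, 137 and 139 in the parent and 85.6, 64.9 and 67.2 in the ADRr libraries and fell by 1.02 (SE 0.17, adjusted p = 1.1e-05). EPHB4, the receptor of EFNB2 in vessels, was counted at 1609, 1405 and 1682 in the parent and 1470.2, 1469 and 1461 in the ADRr libraries. The groups overlapped for EPHB4, whose log2 fold change was -0.09 (95% interval -0.22 to 0.03, adjusted p = 0.21).

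Among the ephrins, the leading type A member fell and the leading type B member rose. EFNA5, the most abundant type A ephrin in parent cells, had 642, 633 and 548 normalized counts there and 281, 252 and 258 in the ADRr libraries. It fell by 1.2 on the log2 scale (SE 0.093, adjusted p = 1.2e-10), from 6.09 ± 0.532 to 2.65 ± 0.154 FPKM. EFNA1, a ligand of EPHA2, rose with a log2 fold change of 0.43 (adjusted p = 0.0052), from 3.02 ± 0.158 to 4.07 ± 0.0871 FPKM, and was the highest type A ephrin in ADRr cells. EFNA4 was not called (log2 fold change -0.45, adjusted p = 0.077), was called without parent replicate 2 (-0.63), and shares 14.96% of its exonic length with AL691442.1 on the same strand.

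EFNB2 (ENSG00000125266, chr13:106489731-106535662), a ligand of EPHB4 and EPHA4, had 402, 395 and 489.9 normalized counts in the parent and 904, 833 and 749 in the ADRr libraries. It rose with a log2 fold change of 0.95 (SE 0.092, adjusted p = 5.7e-09), from 4.89 ± 0.591 to 9.47 ± 0.876 FPKM. An antisense gene, AL138689.2, covers 26.16% of its exonic length, and without a stated strand setting reads of the pair cannot be told apart. EFNB1 rose as well (log2 fold change 0.81, adjusted p = 8.1e-05). EFNB3 was not called (95% interval -1.08 to 0.18, adjusted p = 0.22). The summed EFNB RNA went from 7.46 ± 1.09 to 13.4 ± 1.06 FPKM, and that of EFNA from 14.2 ± 0.623 to 10.3 ± 1.00.

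In the slit system the 1 ligand tested fell and both receptors tested rose. SLIT2, a secreted repellent, had 641, 697 and 630.2 normalized counts in the parent and 331, 365 and 316 in the ADRr libraries, which did not overlap. It fell by 0.96 on the log2 scale (SE 0.087, adjusted p = 1.8e-09), from 3.86 ± 0.209 to 1.99 ± 0.144 FPKM. ROBO4 (ENSG00000154133, chr11:124883691-124898500), a roundabout receptor known mainly from endothelium, had 732, 756 and 936 normalized counts in the parent and 2337, 2309 and 2227 in the ADRr libraries. The lowest ADRr library lay well above the highest parent library, and the log2 fold change of ROBO4 was 1.5 (SE 0.075, adjusted p = 5.0e-14), from 6.57 ± 0.890 to 18.7 ± 0.437 FPKM. ROBO3, its neighbour on chromosome 11 on the other strand, rose with a log2 fold change of 0.82 (adjusted p = 4.9e-09), from 4.62 ± 0.419 to 8.17 ± 0.455 FPKM. The summed level of 8 endothelial markers was 0.485 to 0.821 FPKM in parent and 1.29 to 1.47 FPKM in ADRr libraries. These sums were below the level of ROBO4 in both groups. Of the 2 markers tested, KDR rose, from 0.570 ± 0.154 to 1.21 ± 0.129 FPKM, and PECAM1 was not called. CDH5 and ERG were near 0. Antisense genes AP003501.1 and AP003501.2 cover 10.58% and 6.37% of the exonic length of ROBO4. ROBO1 and ROBO2, the classical slit receptors, had at most 5 and 1 raw counts in any library, and SLIT1 and SLIT3 at most 11 and 1.

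In the netrin system all 3 tested genes rose, from low levels. NTN4 (ENSG00000074527, chr12:95657807-95791152), a basement membrane netrin, was counted at 108, 106 and 124 normalized counts in the parent and 521, 523 and 543 in the ADRr libraries. It had a log2 fold change of 2.23 (SE 0.11, adjusted p = 1.9e-14), from 1.54 ± 0.129 to 7.28 ± 0.182 FPKM, and the libraries of each group lay close together. NTNG2, a lipid-anchored netrin, had 43.2, 55.2 and 69.2 in the parent and 195, 178 and 156 in the ADRr libraries (log2 fold change 1.65, SE 0.18, adjusted p = 2.3e-08). UNC5B, a netrin receptor with a death domain, was near the limit of detection at 7.20, 5.41 and 8.77 in the parent and 11.4, 30.4 and 27.1 in the ADRr libraries (log2 fold change 1.65, SE 0.46, adjusted p = 0.0029). ADRr replicate 1 was the lowest of its group for UNC5B and remained above the parent libraries. UNC5B had enough counts to be tested only with its ADRr libraries, so a fall was hardly open to it. NTN1, the founding netrin, had 2 to 13 raw counts in the 6 libraries and was not tested.

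Of the 23 genes that were not tested, none exceeded 16 raw counts in any library. For 11 of them no library held more than 3 counts, and 6 of the 70 genes had 0 counts in all 6 libraries (SEMA5B, EPHA3, EPHA7, EPHB1, NTNG1 and UNC5D). At these depths 3 counts in a library correspond to 0.164 to 0.188 CPM (counts scaled to library size), and differences below that level were not detectable at this depth. EFNA3 had 5 to 16 counts and shares 44.68% of its exonic length with AL691442.1, and EPHA5 had 0 to 16. Of 11 noncoding genes named after a guidance gene, SEMA3F-AS1 alone was tested, and it was not called (log2 fold change -0.25, adjusted p = 0.62).

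**Figure D3:**
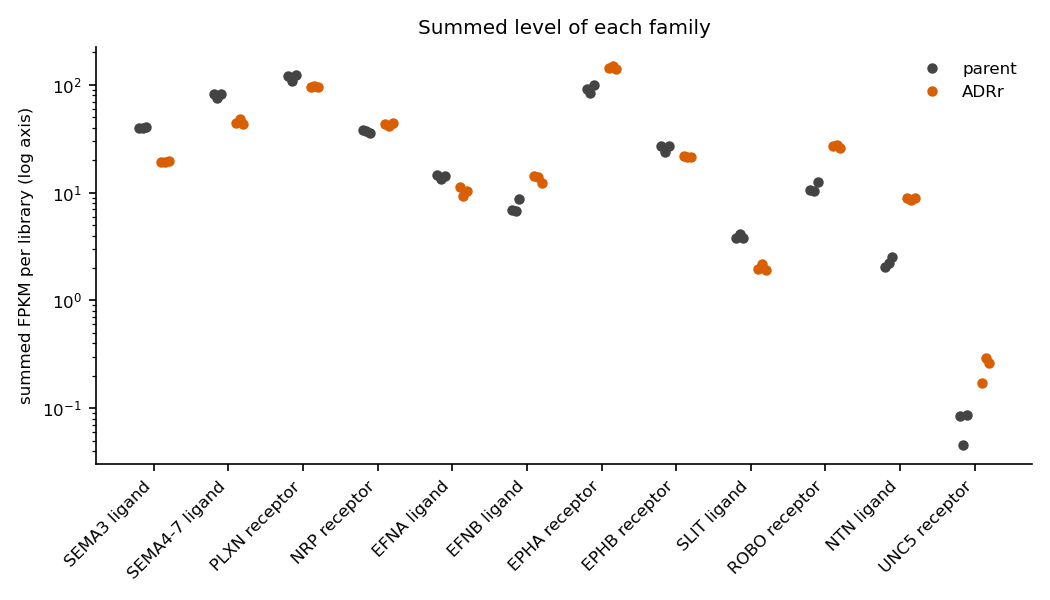
Summed FPKM of each guidance family (y axis, log scale) in each of the 3 parent and 3 ADRr libraries, 1 point per library. The plexin and EPHA sums are the highest in both groups, and the SEMA3 and SEMA4-7 sums are lower while the EFNB, ROBO and NTN sums are higher in every ADRr library.

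Set side by side as sums, which were not tested, plexin RNA went from 118 ± 8.06 to 96.9 ± 0.861 FPKM and EPHA RNA from 91.8 ± 7.92 to 144 ± 4.78 FPKM. The ROBO sum went from 11.2 ± 1.25 to 26.9 ± 0.71 FPKM while the SLIT sum went from 3.92 ± 0.215 to 2.01 ± 0.139, and the NTN sum from 2.25 ± 0.238 to 8.79 ± 0.196. The highest family sum was that of the plexins in parent cells and that of EPHA in ADRr cells. For 1 such sum over 6 libraries, the smallest two-sided p of an exact permutation test is 0.1. All guidance genes together took 0.286% to 0.313% of the counts of a library, with the groups overlapping.

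**Figure D4:**
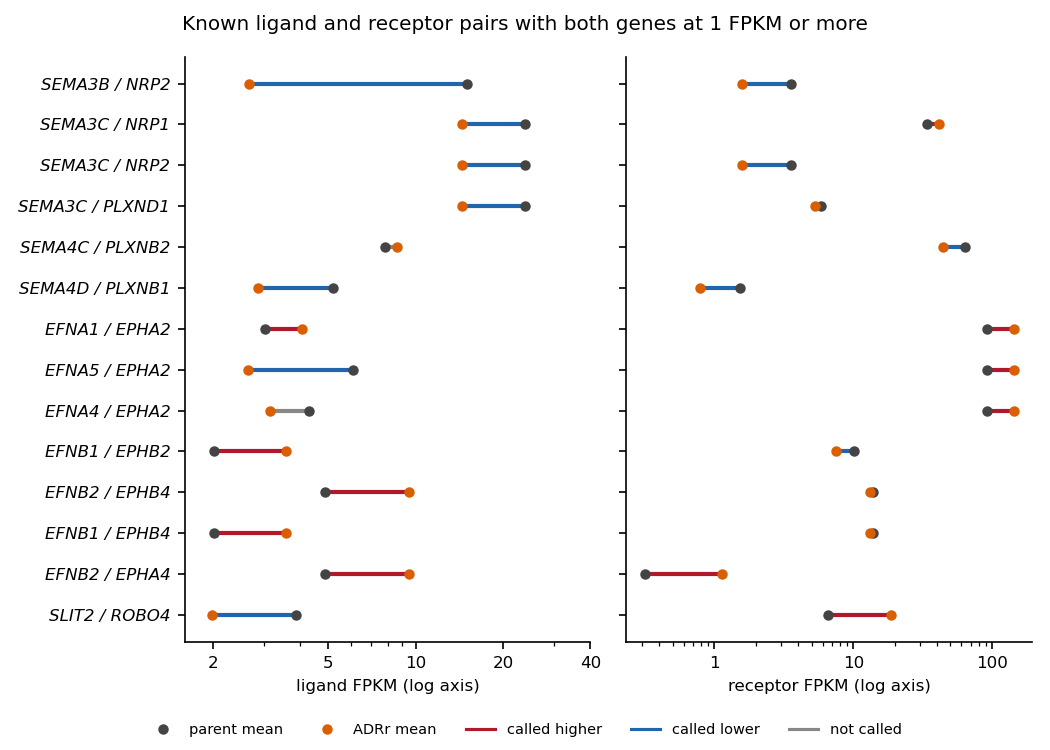
Mean FPKM (x axes, log scale) of the ligand (left) and receptor (right) of 14 listed pairs. In each pair both genes reached 1 FPKM in at least 1 group. Points mark the parent and ADRr means and line colours the call. Both genes are lower in the SEMA3B and NRP2, SEMA3C and NRP2, and SEMA4D and PLXNB1 pairs, and EFNB2 and EPHA4 are both higher.

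Of 30 listed ligand and receptor pairs, 14 had both genes at 1 FPKM or more in at least 1 group. SEMA3B with NRP2, SEMA3C with NRP2 and SEMA4D with PLXNB1 were listed pairs in which both genes fell. SEMA3B was not listed with NRP1, the more abundant neuropilin, which rose. EFNA1 with EPHA2 and EFNB2 with EPHA4 both rose. In SEMA3C with NRP1 and EFNA5 with EPHA2 the ligand fell and the receptor rose, and in EFNB1 with EPHB2 the ligand rose and the receptor fell. SLIT2 fell and ROBO4 rose, but whether ROBO4 acts as a receptor of SLIT2 in these cells was not tested. The classical slit receptors ROBO1 and ROBO2 were too low to test. SEMA7A was at 14.3 ± 0.596 FPKM in ADRr cells while its plexin receptor PLXNC1 was at 0.727 ± 0.145, and NTN4 was at 7.28 ± 0.182 while UNC5B was at 0.192 ± 0.0847. SEMA7A also binds integrins, and the integrin subunit ITGB1 was at 223 ± 8.56 FPKM in parent and 160 ± 6.10 in ADRr cells. Pairs share genes, so their counts are not independent.

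The other genes of the pathways, a list of 120 co-receptors, sheddases, effectors and cytoskeletal proteins, moved in both directions as well. Of 96 tested, 40 rose, 30 fell and 26 were not called (29.2% of all tested genes rose and 29.6% fell), and their median log2 fold change was 0.14. On the semaphorin side 9 of 22 tested rose and 6 fell. MICAL1, an actin oxidase downstream of plexins, rose with a log2 fold change of 1.28 (adjusted p = 6.9e-14), and ITGA1, an integrin subunit, with 1.32 (adjusted p = 6.4e-14). PTK7, a plexin-binding pseudokinase, fell by 2.07 (adjusted p = 1.1e-14) and RAPGEF2, a RAP1 exchange factor, by 0.60 (adjusted p = 5.6e-08).

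On the ephrin side 13 of 25 tested rose and 7 fell. Over all tested genes 29.2% rose and 29.6% fell, which is the background for the slit side as well. ADAM10, the protease that cuts ephrins at cell contacts, had 9622 ± 568 normalized counts in parent and 2954 ± 101 in ADRr cells (mean ± SD, n = 3) and fell by 1.70 (SE 0.053, adjusted p = 1.4e-17). The adaptor ANKS1A fell by 0.61, while GRB10, an adaptor of receptor tyrosine kinases, rose with a log2 fold change of 1.31 and the kinase ABL2 with 1.15. On the slit side 5 of 18 tested rose and 8 fell. The surface proteins that help slit binding were among the falls, with DAG1 (dystroglycan) at 7929 ± 183 normalized counts in parent and 2103 ± 22.9 in ADRr cells (-1.91 on the log2 scale) and SDC2 (syndecan 2) at -1.96, while ARHGAP39 (0.84) and PAK2 (0.76), which act on RAC signalling, rose.

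On the netrin side 7 of 15 tested rose and 4 fell (29.2% of all tested genes rose and 29.6% fell). NEO1 (neogenin), a netrin receptor beside UNC5B, fell by 2.51 (SE 0.21, adjusted p = 4.3e-10). DAPK1, a death-associated kinase that UNC5 receptors bind, was at least 64.5-fold lower with all ADRr libraries under the floor of 3 counts. It had enough counts to be tested only with its parent libraries, so a rise was hardly open to it. ITGB4 (1.11) and ABLIM3 (0.71) rose. Among the VEGF genes, whose products share the neuropilins, VEGFA rose with a log2 fold change of 2.42 (SE 0.048, adjusted p = 7.8e-21) and its receptor KDR with 1.07 (adjusted p = 2.9e-05), and VEGFC fell by 1.04 (adjusted p = 3.2e-12). Of 11 cytoskeletal outputs 4 rose and 4 fell, with the kinases ROCK2 (0.86) and ROCK1 (0.62) higher and PAK4 (-1.03) and LIMK1 (-0.76) lower. CDC42 had few counts, and 57.12% of its exonic length overlaps AL031281.2 on the same strand, so its value is uncertain.

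The genes around each guidance gene were compared as well, by the median log2 fold change of up to 25 nearest tested genes on each side. This median lay between -0.70 and 0.55 over the 47 genes, and 21 of the 37 called genes had the same sign as their neighbours. For 7 genes the neighbours were at least 1.2-fold lower at the median. Among these were 4 genes of chromosome 3: SEMA3B (neighbours -0.69), SEMA3G (-0.62) and PLXNB1 (-0.59) fell with their neighbours, and SEMA3F (-0.70) rose against them. SEMA4B (-0.50), SEMA7A (-0.39) and SLIT2 (-0.36) also fell beside neighbours with lower medians, and SEMA4B fell by less than its neighbours. For 4 genes the neighbours were at least 1.2-fold higher, namely SEMA4F (0.55), EFNB2 (0.53) and PLXNC1 (0.40), which rose, and EFNA5 (0.29), which fell. DNA copy number was not measured, and its part in these values was not tested.

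The line's own markers were present. VIM, CD44, EGFR, CAV1, KRT8, KRT18, FOSL1 and SPARC summed to 882 to 912 FPKM in parent and 723 to 762 in ADRr libraries, and of these 8 SPARC alone was near 0 in both groups. Some markers of other cell types moved with the groups. The summed level of 8 fibroblast markers was 12.8 to 13.1 FPKM in parent and 3.75 to 4.05 in ADRr libraries (3 of 3 tested fell, DCN at 0). Both leukocyte markers tested rose, LAPTM5 with a log2 fold change of 0.68 and CORO1A with 1.27, while PTPRC was near 0 and TYROBP at 0 FPKM. The 8 neuronal markers summed to 0.327 to 0.52 and 1.40 to 1.79 FPKM (2 of 3 tested rose, GAP43 and NEFL at 0). Their part in the guidance results was not tested. Library totals ran from 15983985 to 18272314 counts. Pearson's r of log2 values was 0.989 to 0.993 within groups and 0.935 to 0.937 between them. The lowest r within a group was that of parent replicates 2 and 3.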

How the data were processed

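RNA-seq of 3 parent and 3 ADRr libraries of MDA-MB-231 cells was used. Per the submitters' processing notes, fastp, HISAT2 2.0.5, featureCounts 1.5.0-p3 and GRCh38/hg38 were used, and the strand setting was not given in the sources used here. The authors deposited raw counts per gene and, in a second table, FPKM values, which are scaled by gene length and library. All 58735 gene IDs, coordinates and exonic lengths matched GENCODE 29. Counts were filtered with filterByExpr, scaled by TMM and fitted in edgeR 4.0.16 (R 4.3.3) with its quasi-likelihood test on all 15242 genes kept, with Benjamini-Hochberg adjustment. Calls needed an adjusted p up to 0.05 and a change of 1.2-fold or more, the fold the study used. Normalized counts are counts scaled to the mean effective library size. FPKM served to compare levels between genes and, as log2(FPKM + 1) in limma 3.58.1, as an alternative. The script was tested on simulated data. The guidance genes and the lists of other pathway genes, pairs and markers were chosen with earlier results of these data known. Genes called with a log2 fold change of 1 or more in either direction, or at 10 FPKM or more in either group, were given library by library, and from each pathway list the 2 largest rises and 2 largest falls among genes with at least 100 normalized counts. Intervals are 1.96 SE and, like the floor of 3 counts, do not cover variation between cultures. Alternatives were DESeq2 1.42.0, other scalings, filters, thresholds and the replicate number as a block, and each library was left out in turn. Same-numbered libraries did not deviate together (r of 0.0074, -0.021 and -0.046), so the numbers were not treated as pairs. The summed level of the leukocyte markers is not reported here.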

Additional observations from a re-analysis of the deposited data

How the results depend on the processing

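With a threshold of 1.2 on the log2 scale, in either direction, in place of 1.2-fold, 10 guidance genes were higher and 6 lower in ADRr, against 20 and 17. The same change gave 1114 higher and 972 lower over all genes, against 4451 and 4507, and 7 higher and 8 lower among the other pathway genes, against 40 and 30. In no other alternative did a count move by more than 1.5 times. Leaving out 1 library at a time gave 19 to 20 guidance genes higher and 16 to 19 lower, 4297 to 4483 and 4375 to 4610 over all genes, and 40 to 41 and 29 to 31 among the other pathway genes. With the replicate block 20 guidance genes were higher and 18 lower, EFNA4 (-0.46) joining the falls, and no other guidance gene changed its call. The numbers do not pair the libraries. Over 47 guidance genes and their alternatives, 768 values kept direction and call, 43 lost the call, 4 gained it and 5 changed sign, all 5 of genes that were never called. SEMA6A changed sign with library size alone (0.0045), without parent replicate 1 (0.26) and without ADRr replicate 1 (0.24), in a range of -0.29 to 0.26 over the libraries left out. PLXNA3 (-0.023 to 0.051) and PLXNB3 (-0.00098 to 0.11) changed sign without parent replicate 2. Apart from the stricter fold, calls lost under an alternative were those of low or weakly changed genes. SEMA6C lost its call in 10 alternatives, PLXNC1 and SEMA4G under FPKM with limma, SEMA3E, PLXNA4 and UNC5B under unfiltered FPKM, and SEMA4B, SEMA4F, EFNA1 and NRP1 with glmTreat, which tests against a change of 1.2-fold. EFNA4 was called with no filter (-0.45), and PLXNA1 (-0.17) on the adjusted p alone. Depth limits the genes under about 10 counts in a library, and each group's 3 libraries may be technical repeats of 1 culture.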
